A study of Mus musculus with 8 samples.

Results

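Sterol synthesis and its sensor were read through 8 genes in sorted liver sinusoidal endothelial cells, the perforated lining of the hepatic capillaries. The genes were chosen by symbol as *Insig1*, *Hmgcs1*, *Sqle*, *Idi1*, *Fdps*, *Cyp51*, *Srebf2* and *Stard4*, and 6 of the 8 had a matched target among the 23930 RefSeq targets in the files. *Idi1* and *Fdps* had no match and were not analysed here. All 6 measured genes passed the low-count filter, which left 14601 targets. The cells came from wild type, young female Balb/c mice and were sorted as CD45-dim, STAB2-high and CD146-high, 5 h after an intravenous injection. The mice received either 150 µg of iron citrate or 0.05 M citrate buffer, so citrate itself was given to both groups. Each library came from 1 mouse, and 4 libraries per group were used, although the design text speaks of 5 per group. The question asked of these genes was whether *Insig1*, which was known from earlier results of these data to be higher after iron, moved with other targets of the factor SREBP2.

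SREBP2, the product of *Srebf2*, is the transcription factor that switches on cholesterol synthesis and uptake. It is made as a membrane protein of the endoplasmic reticulum and is held there, bound to its escort SCAP, by the INSIG proteins when sterols are plentiful. When sterols run low the complex leaves for the Golgi, proteases free the factor, and it binds sterol regulatory elements in the promoters of its targets. *Insig1* is itself such a target, so in sterol-starved cells it usually rises together with the enzymes of the pathway.

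The promoters are shown first, because the sterol regulatory element is the letters by which SREBP2 targets are usually recognised. RefSeq promoter windows, on GRCm38.p6, run from 250 bases before a gene's start to 50 bases after it, and those of 5 of the 8 genes were used. No window of *Sqle*, *Fdps* or *Stard4* was used, so the motif counts do not cover these genes. Of the 5 windows 3 are printed here, those of the sensor, of the enzyme at the pathway's entry and of the factor itself. Capitals mark matches to TCACNCCA, the shared letters of a sterol regulatory element, with TCACNCCAC as its longer form, to CCAAT, the site of the partner factor NF-Y, and to CACGTG, a palindromic E-box. Each motif was searched on both strands, so a CCAAT box may be read as ATTGG.

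Insig1: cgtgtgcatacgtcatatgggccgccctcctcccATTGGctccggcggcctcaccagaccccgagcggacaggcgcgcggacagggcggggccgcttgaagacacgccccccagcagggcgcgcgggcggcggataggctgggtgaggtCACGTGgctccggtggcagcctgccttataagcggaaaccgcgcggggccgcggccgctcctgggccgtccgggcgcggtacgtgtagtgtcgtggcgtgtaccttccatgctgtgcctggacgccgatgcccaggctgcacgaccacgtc

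Hmgcs1: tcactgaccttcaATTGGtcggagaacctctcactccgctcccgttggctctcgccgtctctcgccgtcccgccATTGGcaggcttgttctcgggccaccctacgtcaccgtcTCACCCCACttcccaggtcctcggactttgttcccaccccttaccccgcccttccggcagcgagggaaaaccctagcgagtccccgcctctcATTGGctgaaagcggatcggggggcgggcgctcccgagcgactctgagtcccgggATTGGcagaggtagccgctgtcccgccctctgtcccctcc

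Srebf2: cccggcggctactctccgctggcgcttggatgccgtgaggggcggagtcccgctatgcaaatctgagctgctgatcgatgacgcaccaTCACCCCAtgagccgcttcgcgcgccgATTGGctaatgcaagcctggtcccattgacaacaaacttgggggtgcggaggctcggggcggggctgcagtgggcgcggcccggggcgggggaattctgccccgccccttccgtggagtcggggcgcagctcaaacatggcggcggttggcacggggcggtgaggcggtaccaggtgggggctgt

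These windows lie at chr5:28071162-28071461, chr13:119690101-119690400 and chr15:82147019-82147318, each on the plus strand. Counted from the start site as 1, the *Hmgcs1* window held TCACCCCAC at -137 and the *Srebf2* window held TCACCCCA at -162. The *Insig1* window held no match to either form, but had an E-box at -101 and a CCAAT box at -216. The *Hmgcs1* window held 4 CCAAT boxes. The windows of *Cyp51* and *Idi1*, not printed, held 1 and 2 CCAAT boxes and neither form of the sterol element. Over all 32851 windows of this length, 4.36% held TCACNCCA, 1.24% TCACNCCAC, 37.4% CCAAT and 7.15% CACGTG. TGACNNNGC, the core of the antioxidant response element that NRF2 binds, was in none of the 5 windows and in 12.4% of all. The sterol motifs overlap by construction, and a match or its absence describes only the letters of these windows.

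Libraries held 7969520 to 11314659 counts on targets. Citrate buffer replicate 1 stood apart, with a median correlation of 0.84 with its own group against 0.96 to 0.98 for the other 7 libraries. Olfactory, vomeronasal and taste receptors and keratin-associated proteins, families taken here as largely silent in liver, took 2.42% of its counts and 0.98% of those of citrate buffer replicate 2, against 0.30% to 0.61% in the other 6. For sterol and lipid genes whose log2 fold change moved by over 1.5 times without these libraries, values with and without them are given below or in the closing section. Of the cell type markers only *Mcam*, *S100a8* and *S100a9* have such values. Fold changes of other markers, such as *Lyve1*, are given in all 8 libraries only, and how far they depend on these libraries is not shown. The sort's marker gene *Stab2* averaged 1086 ± 154.3 CPM with buffer and 976.6 ± 130.8 CPM with iron (SD, n = 4 each), and the 12 sinusoidal endothelial markers summed to between 14170 and 29310 CPM after buffer, lowest in replicate 1, and 23940 to 25540 CPM after iron.

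*Insig1*, the sterol sensor, was about 1.85-fold higher after iron citrate. In CPM, read counts scaled to library size and TMM factor, it stood at 25.05, 29.5, 33.04 and 29.0 in citrate buffer replicates 1 to 4. After iron citrate it stood at 57.5, 54.5, 52.2 and 51.6 CPM. The groups did not overlap, and every iron library was at more than 1.5 times the highest buffer library. The means were 29.15 ± 3.27 and 53.95 ± 2.66 CPM (SD, n = 4 each). Its log2 fold change came to 0.89 (SE 0.13), with a 95% interval of 0.60 to 1.178 and an edgeR quasi-likelihood adjusted p of 0.013. As a fold this interval ran from 1.51 to 2.26. *Insig1* was read through 219 to 588 counts per library. The spread between iron libraries was 4.92% of the mean, close to the 4.34% that counting alone would give, and between buffer libraries it was 11.2% against 5.76%.

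Of the 6 measured genes 1 was called, *Insig1*, against 0.555% of all 14601 targets at an adjusted p under 0.05 (0.527% higher). DESeq2, which called 2.5% of all targets, and limma-voom, which called 1.98%, also called *Insig1*. *Insig1* was also the one gene of the 6 whose groups did not overlap, against 8.64% of all targets, 6.36% higher and 2.29% lower. Among all targets it ranked 50th by p and 299th by fold change. Leaving out citrate buffer replicate 1 gave *Insig1* a log2 fold change of 0.82 (SE 0.13, adjusted p = 0.00218), in a fit that called 1.76% of all targets. Leaving out replicate 2 of that group as well gave 0.79 (SE 0.15, adjusted p = 0.00449), in a fit that called 1.9%, with 0.546% lower. The call was lost when citrate buffer replicate 2 was left out (adjusted p = 0.0699) or when iron citrate replicate 1, 2, 3 or 4 was (0.0693, 0.0701, 0.058 and 0.0546), at log2 fold changes of 0.86 to 0.91.

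**Figure D1:**
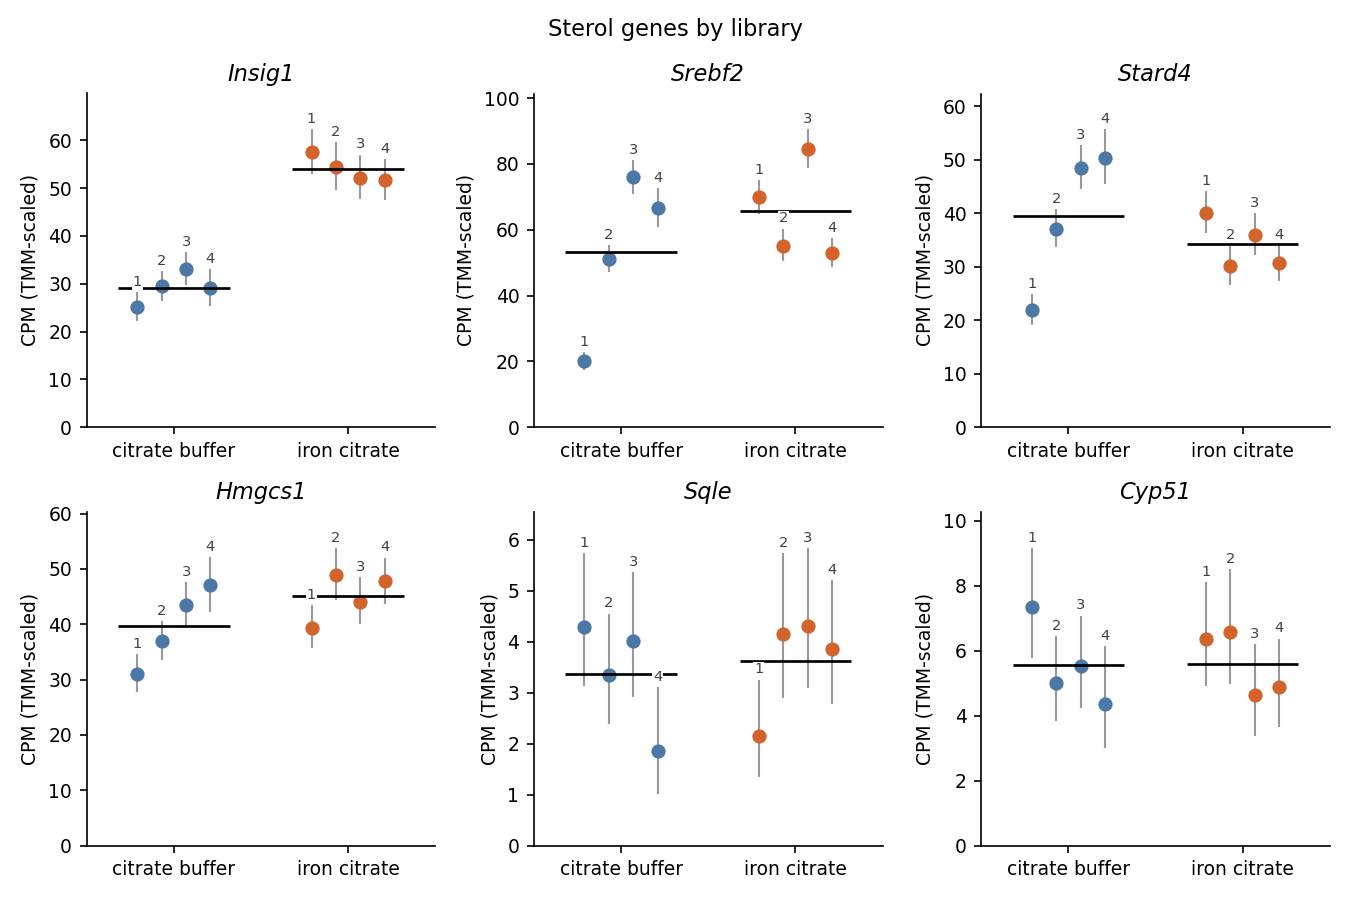
Level of each measured sterol gene in CPM, 1 panel per gene, with 4 citrate buffer libraries (blue) and 4 iron citrate libraries (orange) numbered by replicate. Points are libraries, grey bars are 95% Poisson intervals that cover counting error only, and black lines are group means. The *Insig1* groups are apart, at 25.05 to 33.04 and 51.6 to 57.5 CPM, and the groups of the other 5 genes overlap.

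*Srebf2*, the factor itself, varied widely between buffer libraries. It stood at 20.0, 51.0, 75.9 and 66.5 CPM in the buffer libraries, in replicate order, and at 69.8, 55.2, 84.5 and 52.8 CPM in the iron libraries. Citrate buffer replicate 1 was the lowest library by far, and the other 3 buffer values lay within or near the range of the iron values. The log2 fold change was 0.30 (SE 0.35, 95% interval -0.48 to 1.07, edgeR adjusted p = 0.661). The buffer libraries spread by 45.9% of their mean, against 4.29% from counting. Without citrate buffer replicate 1 the buffer mean was 64.5 ± 12.6 CPM (SD, n = 3) against 65.6 ± 14.7 CPM after iron (n = 4), and the log2 fold change was 0.02 (SE 0.18, 95% interval -0.35 to 0.40, edgeR adjusted p = 0.957). Without citrate buffer replicate 3 it was 0.51, and without iron citrate replicate 3 it was 0.15.

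*Stard4* encodes a soluble carrier that moves cholesterol between membranes and is another known SREBP2 target. It stood at 21.8, 37.1, 48.45 and 50.4 CPM in citrate buffer replicates 1 to 4 and at 39.98, 30.1, 35.9 and 30.6 CPM in the iron citrate libraries. The groups overlapped, with citrate buffer replicate 1 again the lowest library. The log2 fold change was -0.21 (SE 0.25, 95% interval -0.76 to 0.35, edgeR adjusted p = 0.671), the one negative value among the 6. Without citrate buffer replicate 1 it was -0.41 (SE 0.15, 95% interval -0.73 to -0.08, edgeR adjusted p = 0.254), and with replicate 2 of that group left out too it was -0.53 (SE 0.15, adjusted p = 0.0883). *Stard4* was called in neither fit. Without citrate buffer replicate 3 or 4 the value was nearer 0, at -0.096 and -0.066.

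*Hmgcs1*, the cytosolic synthase that makes HMG-CoA at the entry of the mevalonate pathway, was read at 31.05, 36.99, 43.55 and 47.0 CPM after buffer. After iron citrate it was at 39.4, 49.0, 44.1 and 47.8 CPM. The iron values lay within or just above the upper part of the buffer range. The log2 fold change was 0.19 (SE 0.16, 95% interval -0.17 to 0.54, edgeR adjusted p = 0.531). Without citrate buffer replicate 1 it was 0.09 (SE 0.14, adjusted p = 0.803), without replicates 1 and 2 it was -0.007, and without replicate 4 it was 0.28.

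*Sqle*, squalene epoxidase, uses oxygen and FAD to make the epoxide that is closed to the first sterol. It was low, with 14 to 45 counts per library. It stood at 4.29, 3.34, 4.01 and 1.85 CPM after buffer and at 2.15, 4.15, 4.31 and 3.86 CPM after iron citrate. The lowest value of each group, in citrate buffer replicate 4 and iron citrate replicate 1, had counting intervals of 1.01 to 3.11 and 1.35 to 3.26 CPM. The log2 fold change was 0.09 (SE 0.38, 95% interval -0.74 to 0.93, edgeR adjusted p = 0.913), an interval that holds the *Insig1* value. It was 0.21 (SE 0.37) without citrate buffer replicate 1.

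*Cyp51*, the haem-containing P450 that demethylates lanosterol, was read through 33 to 77 counts per library. It stood at 7.33, 5.01, 5.52 and 4.37 CPM after buffer and at 6.35, 6.57, 4.62 and 4.87 CPM after iron citrate. The groups overlapped over most of their range. The log2 fold change was 0.01 (SE 0.31, 95% interval -0.68 to 0.70, edgeR adjusted p = 0.99), and its sign changed with the scaling. It was 0.17 (SE 0.29) without citrate buffer replicate 1. Of the other 5 measured genes, *Hmgcs1* and *Stard4* had intervals that lay below that of *Insig1*, and *Srebf2*, *Sqle* and *Cyp51* had intervals that overlapped it. The differences between genes were not tested. The median log2 fold change was 0.14 over the 6 and 0.09 without *Insig1*, beside -0.01 over all tested targets.

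**Figure D2:**
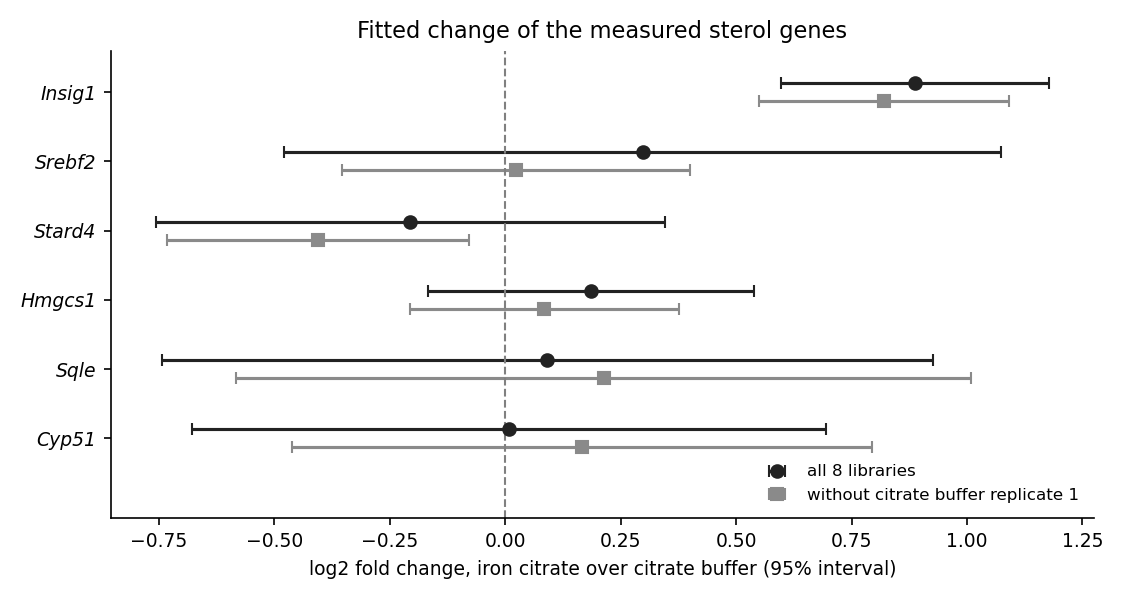
Fitted log2 fold change of iron citrate over citrate buffer for the 6 measured genes, with 95% intervals, in all 8 libraries (black circles) and without citrate buffer replicate 1 (grey squares). The *Insig1* interval, 0.60 to 1.178, lies above 0. The intervals of the other genes cross 0 in all 8 libraries, and that of *Stard4* lies below 0 without citrate buffer replicate 1.

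Ratios within a library do not depend on its total or its scaling factor, so *Insig1* was also set against the other genes library by library. Against the mean log2 CPM of the other 5 measured genes, *Insig1* was higher by 0.89, 0.83, 0.68 and 0.77 in the buffer libraries, in replicate order, and by 1.71, 1.53, 1.41 and 1.57 in the iron libraries. The group means of this difference were 0.79 ± 0.09 and 1.56 ± 0.12 (SD, n = 4 each), 0.77 apart, and the groups did not overlap. Citrate buffer replicate 1, which was low for *Srebf2*, *Stard4* and *Hmgcs1*, was high for *Cyp51* and *Sqle* and was the highest buffer library on this measure, next to replicate 2. As *Insig1* was picked with its rise known, these are descriptions and carry no test.

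Taken gene by gene, *Insig1* counts per *Stard4* count ranged from 0.576 to 1.148 after buffer and from 1.44 to 1.81 after iron. Per *Hmgcs1* count they ranged from 0.617 to 0.807 and from 1.08 to 1.46. Per *Cyp51* count they ranged from 3.42 to 6.64 and from 8.30 to 11.3. In these 3 ratios the groups did not overlap. Per *Sqle* count, with 5.84 to 15.6 and 12.1 to 26.7, and per *Srebf2* count, with 0.435 to 1.25 and 0.618 to 0.987, the groups overlapped. The highest buffer ratio to *Srebf2*, 1.25, was that of citrate buffer replicate 1, and in the other 3 buffer libraries it was 0.578, 0.435 and 0.436, all below the iron libraries.

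*Insig2*, the paralogue that also retains SCAP, served as a further denominator, chosen after its values were seen. It stood at 31.65 ± 6.22 CPM with buffer and 30.7 ± 5.19 CPM with iron (SD, n = 4 each). Its log2 fold change was -0.04 (SE 0.19, edgeR adjusted p = 0.919), and -0.13 and -0.23 without citrate buffer replicate 1 and without citrate buffer replicates 1 and 2. There were 0.978, 1.03, 1.02 and 0.725 *Insig1* counts per *Insig2* count in the buffer libraries, in replicate order, and 1.71, 1.92, 1.44 and 2.10 in the iron libraries. The paralogues were thus read at about equal counts after buffer, and *Insig1* at the higher count in every iron library. Counts of different genes come from different amplicons, so a ratio is read between libraries and not as a ratio of transcripts.

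**Figure D3:**
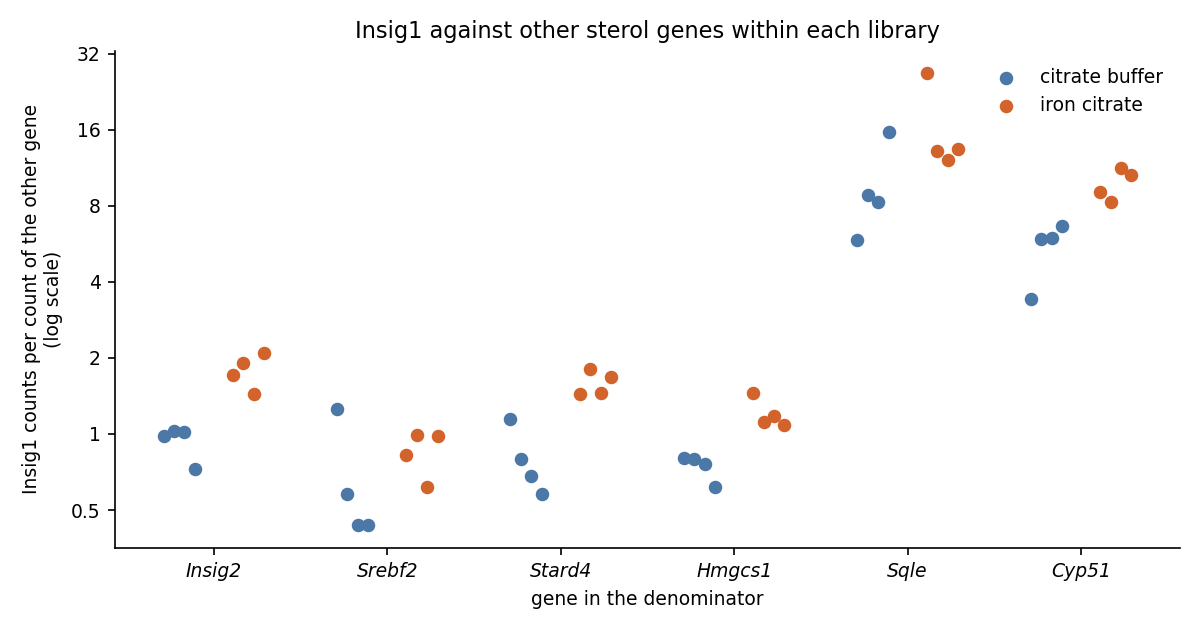
*Insig1* counts per count of another sterol gene in the same library, on a log scale, for 4 citrate buffer libraries (blue) and 4 iron citrate libraries (orange). For *Insig2*, *Stard4*, *Hmgcs1* and *Cyp51* the iron libraries all lie above the buffer libraries, as with 1.44 to 2.10 against 0.725 to 1.03 for *Insig2*. For *Srebf2* and *Sqle* the groups overlap.

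The rest of the pathway was described through lists of genes. Over all targets, 14.6% had an unadjusted p under 0.05 and 8.64% had groups that did not overlap. Of 17 tested enzymes of sterol synthesis, which include *Hmgcs1*, *Sqle* and *Cyp51*, edgeR called 0, with 0 at an unadjusted p under 0.05 and 0 called by DESeq2 or limma-voom. Log2 fold changes ran from -0.71 to 0.31 with a median of 0.02, 10 were above 0 (49% of all targets were), and no enzyme had groups that did not overlap. Log2 values in brackets are fitted log2 fold changes. Among the most abundant, *Sc5d*, a desaturase near the end of the pathway, was at 52.9 ± 6.01 and 64.5 ± 7.56 CPM (log2 value 0.29, SE 0.14, edgeR adjusted p = 0.333). Summed over the list, CPM lay between 328 and 358 after buffer and between 338 and 367 after iron.

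Of 13 genes that sense sterols or process SREBPs, *Insig1* was called and 12 were not, with a median log2 fold change of 0.17. At an unadjusted p under 0.05 (14.6% of all targets) there were 4, which besides *Insig1* were *Mbtps2*, *Srebf1* and *Rnf145*, named after their values were seen. Groups that did not overlap were seen in 8.64% of all targets. *Mbtps2*, a Golgi protease that frees SREBPs, was at 50.5 ± 1.40 CPM with buffer and 67.0 ± 7.57 CPM with iron, with groups that did not overlap (log2 value 0.41, SE 0.12, edgeR adjusted p = 0.294). *Srebf1*, which encodes the factor for fatty acid synthesis, was at 37.4 ± 7.24 and 27.7 ± 3.48 CPM (log2 value -0.43, adjusted p = 0.333). *Rnf145*, which encodes a ubiquitin ligase, was at 129.7 ± 24.9 and 101.8 ± 5.31 CPM (log2 value -0.35, adjusted p = 0.333). *Scap*, also named after its value was seen, had a log2 fold change of -0.23 (adjusted p = 0.414), and of -0.023 without citrate buffer replicates 1 and 2. DESeq2 called 1 gene of the list and limma-voom 2, *Insig1* and, lower, *Rnf145* (adjusted p = 0.047). With citrate buffer replicates 1 and 2 left out, edgeR called *Srebf1* (-0.65, adjusted p = 0.0343) and *Rnf145* (-0.52, adjusted p = 0.0392) lower.

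Of 15 tested genes of cholesterol uptake and transport edgeR called 0, with 0 at an unadjusted p under 0.05 and 0 by DESeq2 or limma-voom, and the median log2 fold change was 0.14. *Lipa*, the lysosomal acid lipase that frees cholesterol from its esters, was at 331.8 ± 60.0 and 368.3 ± 46.8 CPM (log2 value 0.15, adjusted p = 0.638, and 0.041 without citrate buffer replicate 1). *Mylip*, a ubiquitin ligase that LXR induces, was at 457.6 ± 201.6 and 340.3 ± 55.6 CPM (log2 value -0.43, adjusted p = 0.442). The 10 genes of LXR signalling, efflux and oxysterols gave 0 calls by edgeR, 0 at an unadjusted p under 0.05 and 0 by DESeq2 or limma-voom, with a median of 0.06. The exporter *Abcg1* was at 192.0 ± 82.5 and 163.8 ± 10.4 CPM and the apolipoprotein *Apoe* at 300.2 ± 106.4 and 334.4 ± 53.5 CPM. With citrate buffer replicates 1 and 2 left out, *Mylip* (-0.84, edgeR adjusted p = 0.00557), *Abcg1* (-0.62, adjusted p = 0.012) and *Cyp7b1* (-0.92, adjusted p = 0.0071, named after its value was seen) were called lower. With replicate 1 or replicate 2 left out singly, these 3 values were further from 0 than in all 8 libraries. With replicate 3 or replicate 4 left out singly they were nearer 0: *Mylip* was at -0.15 without replicate 4, *Abcg1* at -0.027 without replicate 3, and *Cyp7b1* at -0.05 and -0.015 without replicates 3 and 4 in turn.

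Fatty acid synthesis of the SREBP1 type had 10 tested genes, of which edgeR, DESeq2 and limma-voom called 0. At an unadjusted p under 0.05 (14.6% of all targets) there were 2, each with groups that did not overlap (8.64% of all targets). *Fads1*, a desaturase of polyunsaturated fatty acids, was at 135.0 ± 45.2 CPM with buffer and 204.1 ± 11.2 CPM with iron (log2 value 0.60, SE 0.24, edgeR adjusted p = 0.333). *Elovl6*, an elongase named after its values were seen, was at 2.04 ± 1.31 and 0.82 ± 0.38 CPM (log2 value -1.31, SE 0.53, adjusted p = 0.333). Without citrate buffer replicate 1 *Fads1* was at 0.38 (adjusted p = 0.15) and *Elovl6* at -0.77 (adjusted p = 0.503), and without replicates 1 and 2 they were at 0.30 (adjusted p = 0.331) and -0.80 (adjusted p = 0.624). *Elovl5* was at 181.8 ± 38.0 and 186.1 ± 3.92 CPM. The non-sterol isoprenoid branch, which leaves the pathway at farnesyl diphosphate, had 11 tested genes, of which the 3 tools called 0. At an unadjusted p under 0.05 (14.6% of all targets) there were 3, all with positive values. *Ggps1*, which makes geranylgeranyl diphosphate, was at 65.4 ± 10.9 and 93.2 ± 6.98 CPM (log2 value 0.51, SE 0.15, adjusted p = 0.264, named after its values were seen). *Nus1*, a subunit of the enzyme that makes dolichol chains, was at 76.4 ± 9.18 and 100.1 ± 12.0 CPM (log2 value 0.39, SE 0.14, adjusted p = 0.333), and *Pggt1b*, a geranylgeranyl transferase subunit, at 99.97 ± 16.1 and 124.9 ± 7.36 CPM (log2 value 0.32, adjusted p = 0.333). The groups of *Ggps1* and *Nus1* did not overlap, as in 6.36% of all targets in the higher direction.

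**Figure D4:**
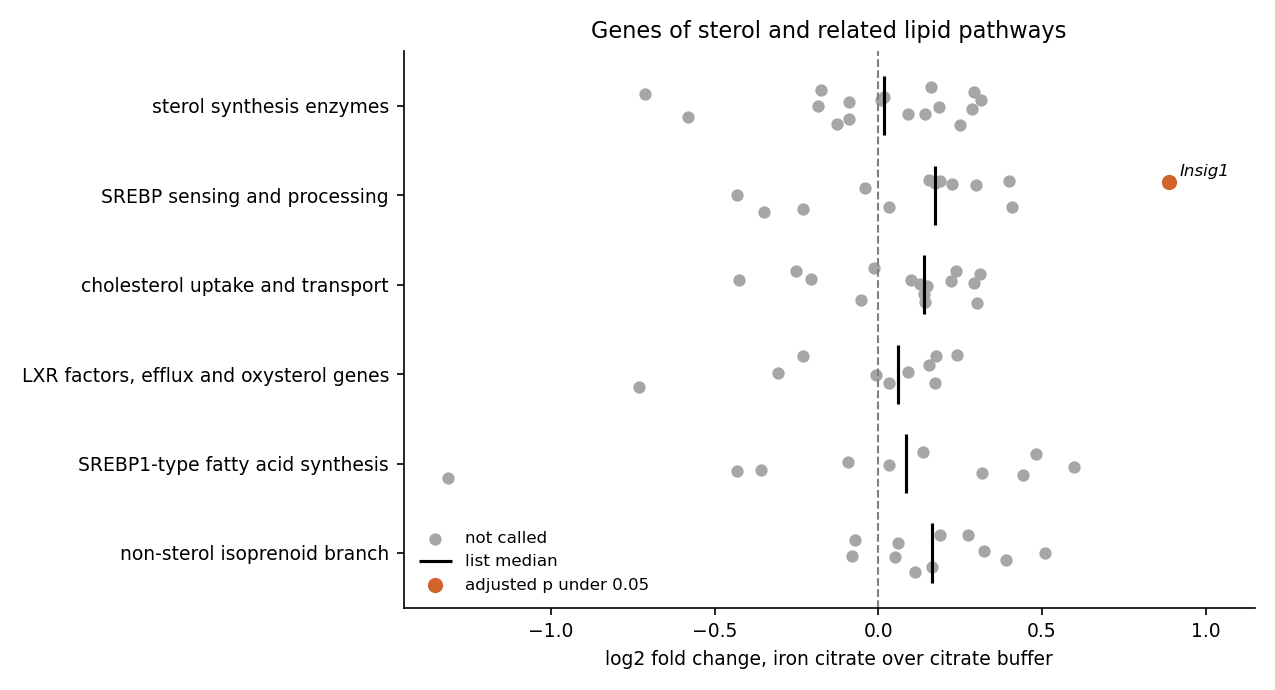
Log2 fold change of iron citrate over citrate buffer for each tested gene of 6 lists of sterol and related lipid genes. Each point is a gene, spread vertically at random within its list, orange marks an edgeR adjusted p under 0.05 and black lines mark list medians. *Insig1*, at 0.89, is the single orange point among 76 genes, and the list medians lie between 0.02 and 0.17.

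Across the 6 lists 1 of 76 tested genes was called, against 0.555% of all targets, and 9 had an unadjusted p under 0.05, against 14.6% of all targets. In bulk libraries fewer cells of a type and less RNA per cell cannot be told apart. Of 56 tested markers of sinusoidal endothelium, hepatocytes, macrophages, other leukocytes, stellate cells and cholangiocytes, and platelets and erythroid cells, edgeR called 0, with 3 at an unadjusted p under 0.05. DESeq2 and limma-voom, which called 2.5% and 1.98% of all targets, called 1 marker each, *Mcam*, lower. The 3 at an unadjusted p under 0.05 (14.6% of all targets), named after their values were seen, were *Mcam*, *Lyve1* and the erythroid *Alas2*. *Mcam*, which encodes the CD146 of the sort, was at 252.7 ± 34.8 CPM with buffer and 179.2 ± 11.3 with iron (log2 value -0.50, edgeR adjusted p = 0.239). *Lyve1* was at 1164 ± 461.6 and 1780 ± 185.1 CPM (0.61, adjusted p = 0.333). *Alas2* was low, at 1.475 ± 0.76 and 4.75 ± 2.67 CPM, with groups that overlapped (1.695, SE 0.55, adjusted p = 0.333). The edgeR fits that left out citrate buffer replicate 1, or replicates 1 and 2, called 1.76% and 1.9% of all targets. Each of these fits called the same 3 markers. *Mcam* was lower in both (-0.59, adjusted p = 0.0135, and -0.62, adjusted p = 0.0113), and it was also called lower with upper-quartile factors (adjusted p = 0.0464) and without factors (adjusted p = 0.0452). The neutrophil and monocyte genes *S100a8* (0.78, adjusted p = 0.0182, and 0.825, adjusted p = 0.0146) and *S100a9* (0.82, adjusted p = 0.0269, and 0.74, adjusted p = 0.0482), both named after their values were seen, were higher. In all 8 libraries they were at -0.22 and 0.038 (edgeR adjusted p = 0.841 and 0.973). *Ly6g*, a further neutrophil marker named after its values were seen, was low, at 1.63 CPM with buffer and 0.96 CPM with iron (-0.75, edgeR adjusted p = 0.354). *S100a8* reached 115.8 CPM in citrate buffer replicate 1, against 24.6, 21.2 and 23.85 CPM in citrate buffer replicates 2 to 4 and 42.2, 40.9, 45.5 and 30.9 CPM in the iron libraries. In all 8 libraries its groups overlapped. Hepatocytes are the main sterol-making cells of the liver, and their 10 measured markers summed to between 471 and 975 CPM after buffer and between 391 and 874 CPM after iron. The macrophage list, of 12 measured markers, summed to between 774.5 and 1075 CPM and between 688 and 1190 CPM. Of its 10 tested markers 8 had log2 fold changes above 0, with a median of 0.52, and 0 were called. *Lyz2*, the most abundant of those tested and named after its values were seen, was at 655.0 and 498.8 CPM (-0.39). Above 0 were 1 of 10 tested hepatocyte markers (median -0.21) and 1 of 11 tested markers of other leukocytes (median -0.28). The list of other leukocytes summed to 1786 CPM in citrate buffer replicate 1, 755 to 1153 CPM in the other 3 of its group and 929 to 1049 CPM after iron. The list of stellate cells and cholangiocytes summed to between 284.7 and 617 CPM and between 414.7 and 615 CPM, and that of platelets and erythroid cells to between 19.7 and 30.7 CPM and between 19.1 and 28.5 CPM. No measured marker of these lists was at 0 in all 8 libraries. The ranges overlapped in every list, and the part of these lists, of *Mcam* and of *S100a8* and *S100a9* in the *Insig1* result was not tested.

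The genes whose pattern was most like that of *Insig1* were sought among 11465 other targets with a symbol and a mean of at least 5 CPM. Likeness was the root mean square difference between log2 CPM values, each centred on the gene's mean over the 8 libraries. Among the closest were *Kctd9* (0.10 on the log2 scale), *Hacd3* (0.11), *Abhd4* (0.11) and *Tbce* (0.12). *Hacd3* encodes a dehydratase of very-long-chain fatty acid elongation and *Tbce* a tubulin-folding cofactor. *Hacd3* averaged 74.5 CPM with buffer and 138.3 CPM with iron, and *Tbce* 46.7 and 96.4 CPM. Among the sterol genes *Hmgcs1* was nearest to *Insig1*, at 0.38 and place 1978 of 11465. *Cyp51* was at 0.52 and place 5965, *Srebf2* at 0.53 and place 6249, and *Stard4* at 0.59 and place 7400. *Sqle*, at 0.60, was below the level needed for a place. Insofar as group means enter the measure, it favours genes with a like difference between groups.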

How the data were processed

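Reads of an amplicon kit (Ion AmpliSeq), in which each gene is read through a short amplicon, were counted on 23930 RefSeq targets in 8 libraries. The authors deposited whole-number counts, 1 file per library, made with HTSeq 0.6.0 per the submitters' processing notes, which also list DESeq2 1.18.1. For the aligner and build, the entry is: not given in the sources used here. HTSeq's summary lines (2.15% to 4.60% of reads) were set aside. Symbols came from RefSeq accessions: 18128 targets matched with their version, 4324 once it was dropped and 110 in another RefSeq table, while 1368 stayed unmatched. Near-identical genes may share reads.

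The groups were compared by edgeR 4.0.16 (R 4.3.3) with filterByExpr, TMM factors, a robust quasi-likelihood F-test and Benjamini-Hochberg adjustment over 14601 targets, calling at 0.05. SEs and 95% intervals follow from the F statistic. Log2 CPM had a prior count of 2. Poisson intervals (95%) cover counting error only, as reads carry no molecular identifiers. The labels name a mouse per library and nothing on litters or days, so the p-values reflect only how these samples vary, which may be technical. Pairs within a group differed by a chi-square per degree of freedom of at least 8.34, above sampling noise.

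The rule for names took the 8 genes, each list's called genes or else its 2 most abundant others, and the 5 genes most like *Insig1*. Exceptions are marked, and some genes that the rule takes are not reported here. The members, lists and tests were chosen with earlier results of these data known. The relative level of *Insig1* was planned against 7 genes, of which 5 were measured. Alternatives were other scaling and filters, DESeq2 1.42.0, limma-voom (limma 3.58.1), the replicate number as a block and libraries left out. On counts simulated for this comparison (14601 genes), edgeR recovered 20 of 100 genes with a 2-fold change and 74 of 100 with a 4-fold change, and called 7 of the 14401 others. Plots used Python 3.11.15, pandas 2.3.3 and matplotlib 3.10.9.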

Additional observations from a re-analysis of the deposited data

How the results depend on the processing

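The *Insig1* log2 fold change was positive in all 17 alternatives, between 0.78 and 0.95, and its call held in 11. With each library left out in turn it lay between 0.82 and 0.95 (adjusted p = 0.00218 to 0.0701), and the number of the 6 genes called between 0 and 1. With the replicate block it was 0.89 (adjusted p = 0.0939), 0 of the 6 genes were called, and 43 targets were called in all. The replicate numbers share no stated source: same-numbered libraries had correlations of deviations of 0, 0.176, 0.609 and -0.315, and 1 of the 4 buffer libraries correlated best with its own number. Over all targets, 81 were called (77 higher, 4 lower), 365 with DESeq2, 289 with limma-voom, 281 without citrate buffer replicates 1 and 2, and 46 to 259 with 1 library left out. The cause of these differences was not tested. Set against the median of the other measured genes in place of their mean, the rise of *Insig1* was 0.94 in place of 0.77, and with 1 library left out it was 0.72 to 0.81.

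Members near 0 changed sign. *Cyp51* was at -0.018 with RLE factors, -0.12 with upper-quartile factors, -0.11 without factors, -0.023 with a mean CPM of at least 5 and -0.023 with DESeq2, and between -0.084 and 0.17 with 1 library left out. *Sqle* was at -0.037 with upper-quartile factors and -0.032 without factors, and between -0.10 and 0.28 with 1 library left out. Its mean was under 5 CPM, so that filter gave no value. Without citrate buffer replicates 1 and 2 *Hmgcs1* was at -0.007 and *Srebf2* at -0.12. *Stard4* kept its sign in all 17, between -0.53 and -0.07. Of other named genes, *Apoe* was at -0.073 with limma-voom, -0.056 without citrate buffer replicate 1 and -0.18 without 1 and 2, and between -0.056 and 0.33 with 1 library left out. *Elovl5* was at -0.069 with upper-quartile factors, -0.055 without factors, -0.08 with limma-voom and -0.088 without citrate buffer replicates 1 and 2, and between -0.11 and 0.10 with 1 library left out. With 1 library left out *Insig2* lay between -0.13 and 0.092 and *Mbtps1* between -0.004 and 0.42, and *Mbtps1* was at -0.13 without citrate buffer replicates 1 and 2. The median of all targets moved from -0.01 to -0.12 with upper-quartile factors and to -0.11 without factors, and *Insig1* was then at 0.78 and 0.79. *Sqle* and *Cyp51* had 14 to 77 counts per library, and their buffer libraries spread by 32.2% and 22.9% of the mean, against 16.7% and 13.1% from counting.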

Other observations

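Several genes that the oxysterol receptor LXR is known to induce were called lower after iron by edgeR once citrate buffer replicates 1 and 2 were left out. These replicates held the lowest buffer values of the genes, so leaving them out raised the buffer means. By correlation with its own group replicate 1 stood apart and replicate 2, at 0.96, did not. By chi-square per degree of freedom replicate 2 differed from replicates 3 and 4 by 21.25 and 19, against 9.79 between replicates 3 and 4. These genes were picked after their values were seen, from the lists of sterol and lipid genes. *Mylip*, a ubiquitin ligase, stood at 220.8, 394.7, 515.3 and 699.5 CPM in citrate buffer replicates 1 to 4 and at 390.1, 298.2, 386.3 and 286.5 CPM in iron citrate replicates 1 to 4. Its log2 fold change was -0.43 in all 8 libraries (edgeR adjusted p = 0.441), -0.66 without citrate buffer replicate 1 (0.0925) and -0.84 without citrate buffer replicates 1 and 2 (0.00557). The cholesterol exporter *Abcg1* went from -0.23 (adjusted p = 0.701) to -0.49 (0.103) and -0.62 (0.012) under the same settings. *Srebf1* went from -0.43 (adjusted p = 0.333) to -0.53 (0.111) and -0.65 (0.0343), and *Rnf145* from -0.35 (0.333) to -0.47 (0.0519) and -0.52 (0.0392). *Cyp7b1*, an oxysterol hydroxylase of the same list as *Abcg1*, went from -0.31 (adjusted p = 0.731) to -0.60 (0.328) and -0.92 (0.0071). Leaving out other buffer libraries moved the values the other way. *Mylip* was at -0.15 without replicate 4 (adjusted p = 0.759), *Abcg1* at -0.027 (0.967) and -0.12 (0.849) without replicates 3 and 4 in turn, and *Cyp7b1* at -0.05 (0.959) and -0.015 (0.988). *Srebf1* and *Rnf145* were lowest in size at -0.33 without replicate 4 and -0.26 without replicate 3.

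Other genes known to respond to LXR were not called in that fit. *Abca1* had a log2 fold change of -0.05 without citrate buffer replicates 1 and 2 (edgeR adjusted p = 0.961), *Lpcat3* of -0.21 (0.657), *Scd1* of -0.02 (0.993) and *Scd2* of 0.11 (0.873). In all 8 libraries they were positive, in that order at 0.24 (adjusted p = 0.722), 0.09 (0.832), 0.32 (0.68) and 0.48 (0.402). The receptors themselves, *Nr1h2* and *Nr1h3*, were at 0.03 and -0.008 in all 8 libraries. Without citrate buffer replicates 1 and 2 they were at -0.26 (adjusted p = 0.507) and 0.05 (0.984). The fit without those replicates compares 2 buffer libraries with 4 iron libraries and called 1.9% of 14828 targets, of which 81 were lower. In *Mylip*, *Abcg1*, *Srebf1*, *Rnf145* and *Cyp7b1* citrate buffer replicate 1 had the lowest buffer value and citrate buffer replicate 2 the next, in the order of the share of counts on gene families taken as largely silent in liver, 2.42% and 0.98%. Without citrate buffer replicates 1 and 2 *S100a8* (0.825, adjusted p = 0.0146) and *S100a9* (0.74, adjusted p = 0.0482), markers of other leukocytes, were called higher and the endothelial marker *Mcam* lower (-0.62, adjusted p = 0.0113). In all 8 libraries *S100a8* and *S100a9* were at -0.22 and 0.038 and were not called. Of the 11 tested markers of other leukocytes 1 was above 0 in all 8 libraries, with a median of -0.28. The part of that share and of these markers in the values of the LXR genes was not tested.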
